A study of Mus musculus with 72 samples.

Results

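The comparison is of livers of male C57BL/6N mice (B6N, labelled C57BL/6NTac) with livers of male C57BL/6J mice (B6J), both after 21 days on a high-fat diet (HFD). It covers 15 of the 72 liver arrays of the series, taken by their titles, 8 from B6N and 7 from B6J, and all 19938 genes that have a probe set with 1 gene symbol. All mice were wild type and housed singly, the HFD mice were 17 weeks old, and livers were taken in the random-fed state. A further 8 B6N and 8 B6J control livers came from mice of 15 to 17 weeks. The control mice carry the treatment label none, while the treatment protocol names a low-fat diet for up to 21 days, so the diet of each control was not settled. The series follows 4 inbred strains through the HFD challenge, and the B6N and B6J arrays share 1 value scale, with array medians of 4.51 to 4.67. Values are log2 expression values, a difference is B6N minus B6J on that scale, and a gene is called at an adjusted p under 0.05 (limma, Benjamini-Hochberg over all genes tested).

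The substrains C57BL/6N and C57BL/6J descend from 1 colony and have been bred apart for decades. B6J lacks several exons of Nnt, the gene of the inner-membrane enzyme that uses the proton gradient to make mitochondrial NADPH, and B6N carries its own variants, such as those in Crb1 and Cyfip2. On fat-rich food the liver stores triglyceride, raises fatty acid oxidation through the nuclear receptor PPARα and adjusts the synthesis of cholesterol and bile acids.

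Some arrays stood apart before any comparison of the substrains. Once group means were removed, the first principal component held 29.4% of the remaining variance and divided the 31 B6N and B6J arrays into 2 parts. On HFD, part 1 held 3 B6N and 5 B6J arrays, and part 2 held 5 B6N and 2 B6J arrays, while the control groups held 4 arrays of each part. In each of the 4 groups the parts followed the replicate numbers of the titles, with the lower numbers in part 1 (1 to 3 in B6N and 1 to 5 in B6J on HFD, 1 to 4 in each control group). The labels do not say whether these numbers mark a hybridisation, scan or other batch. With group in the fit, 8418 of the 19938 genes (42.2%) differed between the parts, and 32 of 51 small nucleolar RNA genes were lower in part 2 and 3 higher. The parts were drawn from these same values, which favours a large share, so these counts are a description and not a test. B6N control replicate 4 lay about midway between the parts. Pancreatic acinar genes also varied widely within groups. The mean log2 value of 22 such genes ran from 4.71 to 7.58 in B6N HFD livers, with a median of 6.10, and from 4.64 to 10.2 in B6J HFD livers, with a median of 6.71. B6J HFD replicates 1 and 2 lay above 9. Hepatocyte markers were high in every HFD array, with a mean over 16 genes of 12.3 to 12.6 in both substrains.

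On HFD, 37 of the 19938 genes were called (0.186%), 18 higher in B6N (0.0903%) and 19 lower in B6N (0.0953%). The higher genes were led by Cyp2b9, a cytochrome P450, Acnat2, a peroxisomal acyltransferase, AI506816, a long noncoding RNA, and Nnt. The lower genes were led by Cyp7a1, which starts bile acid synthesis and sets its rate, Tff3, a secreted trefoil peptide, Adgrf1, an adhesion receptor, and Asns, asparagine synthetase. Differences were at least 2-fold in 9 of the 37 genes and under 1.5-fold in 13. Without adjustment, 1437 genes (7.21%) had a p under 0.05.

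The arrays of the substrains did not overlap on HFD in 11 of the 37 genes, Acmsd, Asns, Dhrs9, Enho, Entpd4, Krt23, Nnt, Pebp1, Rab4a, Tff3 and Wdfy1. Over all genes tested, 28 showed no overlap (0.14%). Each of the 37 differences had the same sign within both parts of the arrays. With the parts as a block all 37 were called. The genes were chosen in these same arrays and the parts were drawn from the same values, which favours both results. In separate fits of each part, 2 of the 37 were called in both. B6N replicate 8 lay nearest to B6J in 16 of the 37 genes, more often than any other B6N array (1 to 6 genes), and B6J replicate 6 lay nearest to B6N in 13. Without B6J HFD replicates 1 and 2 and B6J control replicate 6, the arrays with an acinar level above 9, 18 genes were called, 16 of them among the 37, and no difference changed sign. The 16 were AI506816, Acmsd, Adgrf1, Asns, Cib3, Cyp2b9, Enho, Entpd4, Krt23, Nnt, Rab30, Rab4a, Slc17a8, Tff3, Urad and Wdfy1.

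**Figure D1:**
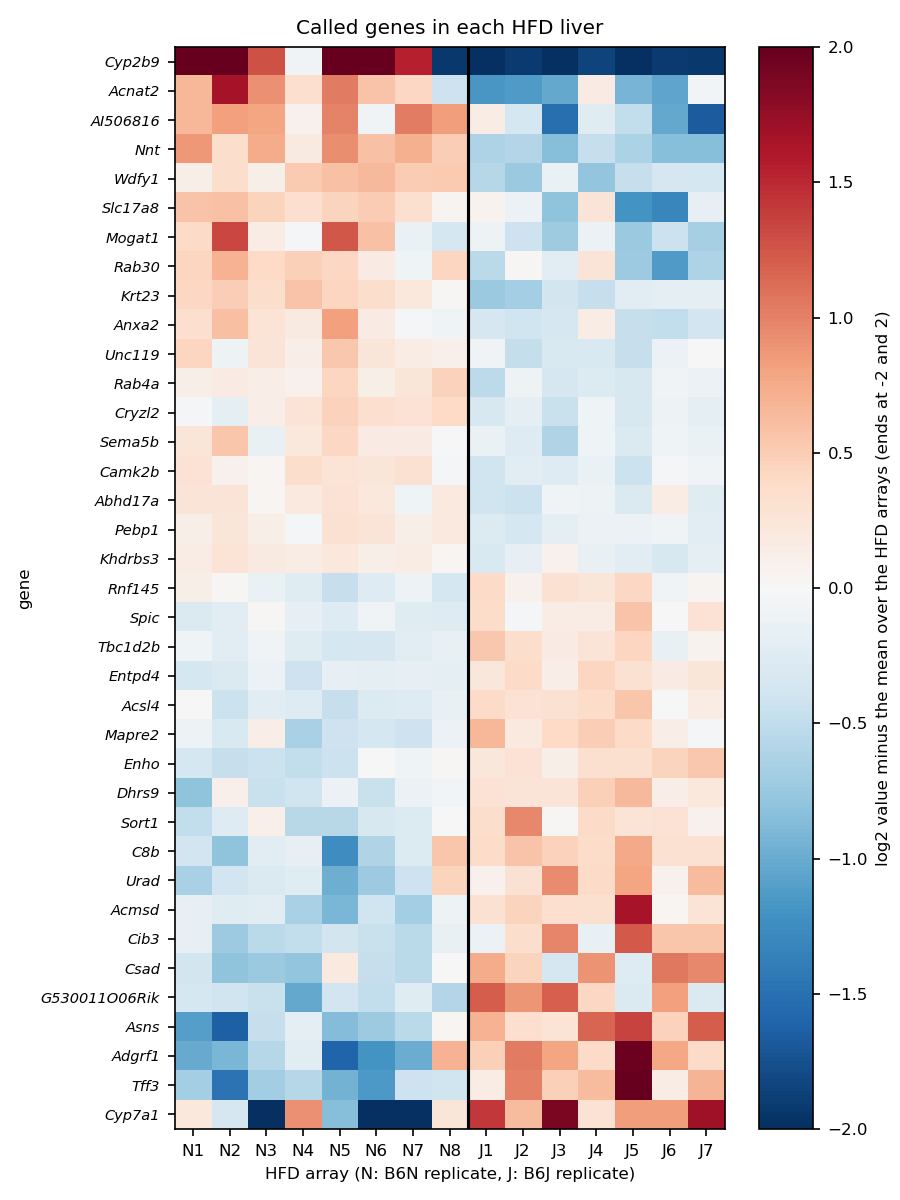
Each row is 1 of the 37 called genes, ordered by its difference, and each column 1 HFD liver, with B6N replicates 1 to 8 left of B6J replicates 1 to 7. Colour gives the log2 value minus the gene's mean over the 15 arrays, and values beyond -2 or 2 take the end colours. B6N replicate 8 resembles B6J in Cyp2b9, Adgrf1, C8b and Urad.

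Leaving out 1 HFD array at a time gave 21 to 56 called genes, the fewest without B6N replicate 5 and the most without B6N replicate 8. In every one of these 15 fits 18 of the 37 genes were called: Acmsd, Acnat2, Acsl4, Adgrf1, Anxa2, Asns, C8b, Cyp2b9, Enho, Entpd4, Khdrbs3, Krt23, Nnt, Pebp1, Rab4a, Tff3, Urad and Wdfy1. The other 19 lost the call without at least 1 array. B6N replicate 5 cost 16 calls, and B6N replicates 4 and 6 and B6J replicates 3 and 5 cost 15 each. B6N replicate 7 cost 13, B6J replicates 1 and 7 cost 12 each, and the remaining arrays 2 to 9. These fits kept the control arrays, which add to the estimate of the spread. With only the HFD arrays in the fit, Acmsd, Anxa2, C8b, Khdrbs3, Pebp1, Tff3 and Urad lost the call (adjusted p from 0.0702 to 0.0974).

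Genes reported to carry a variant in 1 of the substrains were examined first, because they check the labels. Nnt had log2 values of 8.98 (lowest), 9.45 (median) and 9.73 (highest) in the B6N HFD livers, against 7.94, 8.16 and 8.34 in the B6J HFD livers. No B6N array came near the B6J range, as the labels require. The difference was 1.30 ± 0.13 (SE), a 2.47-fold higher level in B6N (95% interval 2.07 to 2.95, adjusted p = 1.02e-07), and in controls it was 1.14 ± 0.12 (adjusted p = 6.91e-07). The probe set of Nnt also gave values well above the array median in B6J, so the fold is one of signal over the probes of that set.

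Wdfy1, which encodes a protein of early endosomes with a phosphoinositide-binding FYVE domain, had 5.86, 6.26 and 6.40 in B6N HFD livers (lowest, median, highest) and 4.96, 5.29 and 5.61 in B6J HFD livers. The groups did not overlap, and B6N was 1.87-fold higher (1.63 to 2.16, adjusted p = 1.87e-06). In controls the difference was 0.85 ± 0.10, close to the 0.91 ± 0.10 on HFD. Nnt and Wdfy1 were the 2 genes called in every alternative setting tried.

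Entpd4, a nucleoside diphosphatase of the Golgi and lysosome, ran the other way. Its values were 7.43, 7.66 and 7.72 in B6N HFD livers, against 7.97, 8.09 and 8.28 in B6J HFD livers. The groups were again separate, with B6N lower by a difference of -0.50 ± 0.06 (adjusted p = 1.15e-05). In controls the difference was -0.70 ± 0.06. The RefSeq table also lists a near copy, Entpd4b, and a probe set that reads both cannot tell them apart.

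The other 10 of the 13 variant genes measured were not called, and Nlrp12 was not analysed here. Crb1, a retinal polarity gene, differed by -0.13 ± 0.09, Cyfip2, an actin regulator, by 0.04 ± 0.11, Ide, which encodes insulin-degrading enzyme, by -0.13 ± 0.13 and Nbas, a gene of Golgi-to-ER transport, by -0.01 ± 0.14. Adcy5, Chl1, Fgfbp3, Pdzk1, Rptor and Zp2 lay between -0.08 and 0.04. The list's median was -0.02, against 0.005 over all genes.

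Acnat2 and G530011O06Rik were also called in both diets. Acnat2, of a family that joins fatty acids to taurine in peroxisomes, had 4.46, 5.48 and 6.52 in B6N HFD livers and 3.71, 3.84 and 5.03 in B6J HFD livers. B6J replicates 4 and 7 lay above B6N replicate 8, whereas in controls, where the difference was 1.70 ± 0.25, the groups did not overlap. On HFD B6N was 2.62-fold higher (1.81 to 3.79, adjusted p = 0.0111), a fold of uncertain size because most B6J values lay below the array median. The call was lost without the arrays of high acinar level (1.23, adjusted p = 0.13), and the paralogue Acnat1 may share its signal.

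G530011O06Rik, a long noncoding RNA gene with no role given here, had 3.70, 4.31 and 4.48 in B6N HFD livers, against 4.44, 5.55 and 5.94 in B6J HFD livers. All but 2 B6J arrays lay above the B6N range. The B6N values were all below the array median, so the size of the difference is uncertain. The difference was -1.06 ± 0.21 on HFD (adjusted p = 0.0145) and -1.05 ± 0.20 in controls (adjusted p = 0.0317). On HFD the call was lost without B6J replicate 1 or 3 (highest adjusted p = 0.060) and without the arrays of high acinar level (-0.86, adjusted p = 0.165).

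In control livers 6 of the 19938 genes were called (0.0301%), and 5 of them, Nnt, Wdfy1, Entpd4, Acnat2 and G530011O06Rik, were called on HFD too. The group means compared in HFD and in control livers share no array. Both tests take the spread of each gene from 1 fit of all 31 arrays, so they are not independent. The 6th, Tmem267, a predicted membrane protein gene, was lower in B6N controls by a difference of -1.05 (adjusted p = 0.00635) and had -0.81 ± 0.19 on HFD (adjusted p = 0.0639). In the gene order of the RefSeq table (GRCm38.p6, chromosome 13) Tmem267 and Nnt have 3 genes between them, Slc17a8 and Spic, on chromosome 10, have 9, and Mogat1 and Wdfy1, on chromosome 1, have 16. The 38 genes called in either diet lay on 18 chromosomes.

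**Figure D2:**
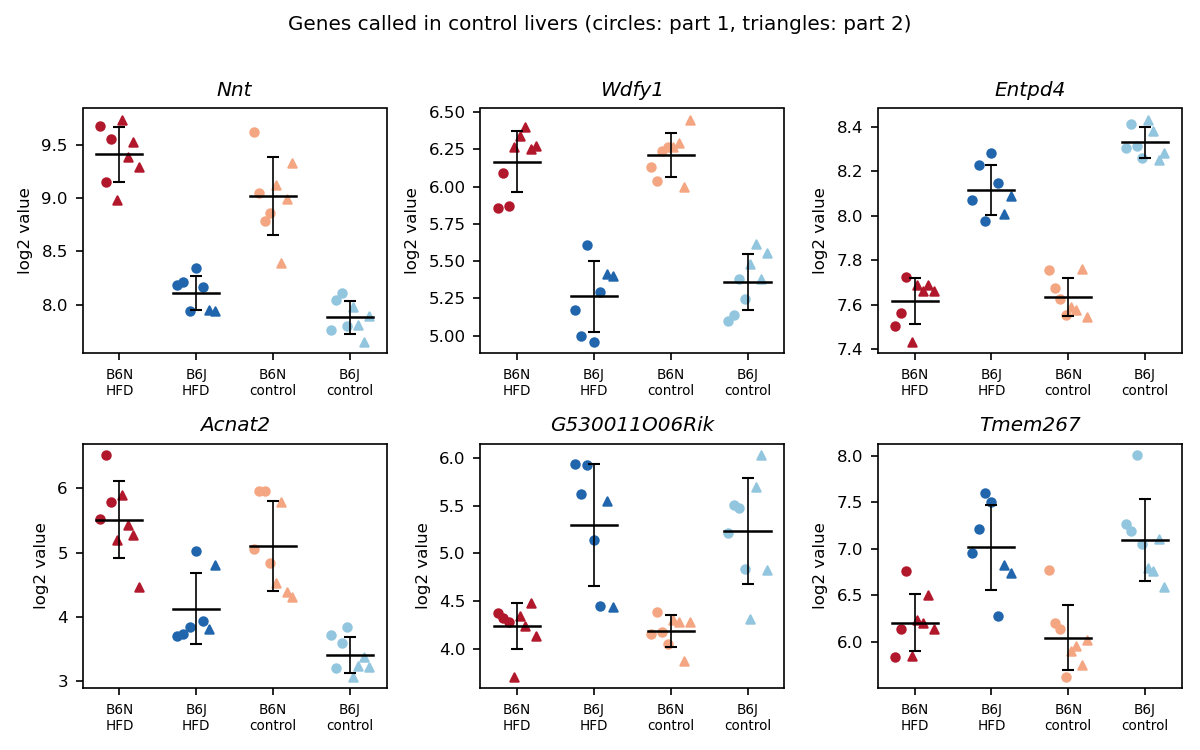
Log2 values of the 6 genes called in control livers, per array, in B6N HFD, B6J HFD, B6N control and B6J control livers. Bars are means with SD, and circles and triangles mark the 2 parts of the arrays. The HFD groups are separate in Nnt, Wdfy1 and Entpd4, and touch or overlap in the other 3 genes.

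Cyp2b9 had the largest difference of all genes tested. It encodes a P450 of the family that metabolises steroids and drugs and is known for higher expression in female than in male mouse liver. The 8 B6N HFD livers had 3.43, 7.48 and 9.48 (lowest, median, highest), against 3.04, 3.43 and 3.52 in the 7 B6J HFD livers. In 7 of 8 B6N livers the gene was well above the whole B6J range, and replicate 8 lay within it. The difference was 3.80 ± 0.51 (SE), a 13.9-fold higher level in B6N (6.77 to 28.5, adjusted p = 6.85e-05). It was 4.48 within part 1 and 3.31 within part 2. The B6J values lay below the median of the array values (4.57), so a level there cannot be told from background and the size of the fold is uncertain. The Cyp2b family has close paralogues, which may share signal with this probe set.

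In controls Cyp2b9 had 3.35, 4.06 and 5.65 in B6N livers and 3.12, 3.30 and 3.44 in B6J livers. The control difference of 0.81 ± 0.49 was not called (adjusted p = 0.617). The difference on HFD exceeded that in controls by 2.98 ± 0.71, with an unadjusted p of 0.00018 and an adjusted p of 0.957. It was the one gene whose difference between diets was called in any fit, within part 1 (3.34, adjusted p = 0.0421) and without B6N HFD replicate 8 (3.51, adjusted p = 0.00304).

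The bases before the start of Cyp2b9 are shown because the gene carries the largest difference. They are the 250 bases before the first listed start in RefSeq (GRCm38.p6, chr7:26173159-26173408, plus strand). Capitals mark AGGTCA, the half-site that nuclear receptors bind, which begins 138 bases before the start.
Cyp2b9: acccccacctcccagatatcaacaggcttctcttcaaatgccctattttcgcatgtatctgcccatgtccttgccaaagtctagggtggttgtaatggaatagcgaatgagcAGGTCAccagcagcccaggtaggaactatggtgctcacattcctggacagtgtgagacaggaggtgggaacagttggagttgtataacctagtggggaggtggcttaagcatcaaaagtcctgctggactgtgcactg

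Promoters of 26 of the 37 called genes were found in the RefSeq table. AGGTCA, read on both strands, was present in 6 of these (Acmsd, C8b, Cryzl2, Cyp2b9, Dhrs9 and Unc119), against 15.8% of the 27025 genes with a promoter. Its direct repeat with 1 base between the copies, which contains it and is the form that PPARα binds, was in none of the 26 and in 0.0407% of all. CACGTG was in 2, Krt23 and Rnf145, against 6.86% of all. These are matches of letters in a window and not binding sites.

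No other P450 gene of drug metabolism was called. The list had 32 measured genes, 22 of them above 0, and a median difference of 0.07. Cyp2b9 is likewise the one called member of the 23 measured female-biased liver genes, whose median was -0.03. Among 30 measured male-biased genes 1 was called, C8b, which was lower in B6N, and 7 differences were above 0. The median was -0.22 on HFD and -0.14 in controls, and on HFD -0.29 within part 1 and -0.06 within part 2. With the parts as a block 3 female-biased genes were called, all higher (Cyp2b9, Acot3 and Slc22a27). In that fit 2 male-biased genes were called, all lower (C8b and Selenbp2), against 0.421% of all genes called. The parts were drawn from these same values, so these counts are a description. Slc22a27 is named here after its values were seen.

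A mixed list of annexins, fibrosis-associated genes and steatosis markers held 3 of the higher genes. Of its 22 measured genes 3 were called, all higher (Krt23, Anxa2 and Mogat1), against 0.186% of all genes. In this list 16 differences were above 0, against 51.9% of all genes, and the median was 0.15, against 0.005 over all genes. Krt23, a type I keratin, had 4.67, 5.03 and 5.21 in B6N HFD livers and 3.91, 4.28 and 4.46 in B6J HFD livers. The groups did not overlap, and B6N was 1.69-fold higher (1.46 to 1.97, adjusted p = 0.00013). All B6J values lay below the array median, so the size of the fold is uncertain. In controls the difference was 0.28 ± 0.10 (adjusted p = 0.413).

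Anxa2, a calcium-dependent membrane-binding protein, had 6.08, 6.39 and 6.99 in B6N HFD livers and 5.67, 5.78 and 6.31 in B6J HFD livers. One B6J array, replicate 4, accounts for the overlap. B6N was 1.52-fold higher (1.30 to 1.79, adjusted p = 0.0108), and in controls the difference was 0.11 ± 0.11. The call was lost without the arrays of high acinar level (0.59, adjusted p = 0.0822).

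Mogat1, which adds a fatty acid to monoacylglycerol on the way to triglyceride, had 3.63, 4.26 and 5.33 in B6N HFD livers, against 3.24, 3.55 and 3.89 in B6J HFD livers. Its values lay partly below the array median. The ranges overlapped in the lower B6N arrays, and the difference was 0.85 ± 0.18 on HFD (adjusted p = 0.0301) and 0.12 ± 0.17 in controls. The call was lost in 7 of the 15 fits that left out an array (highest adjusted p = 0.0956) and without the arrays of high acinar level (0.93, adjusted p = 0.0743).

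**Figure D3:**
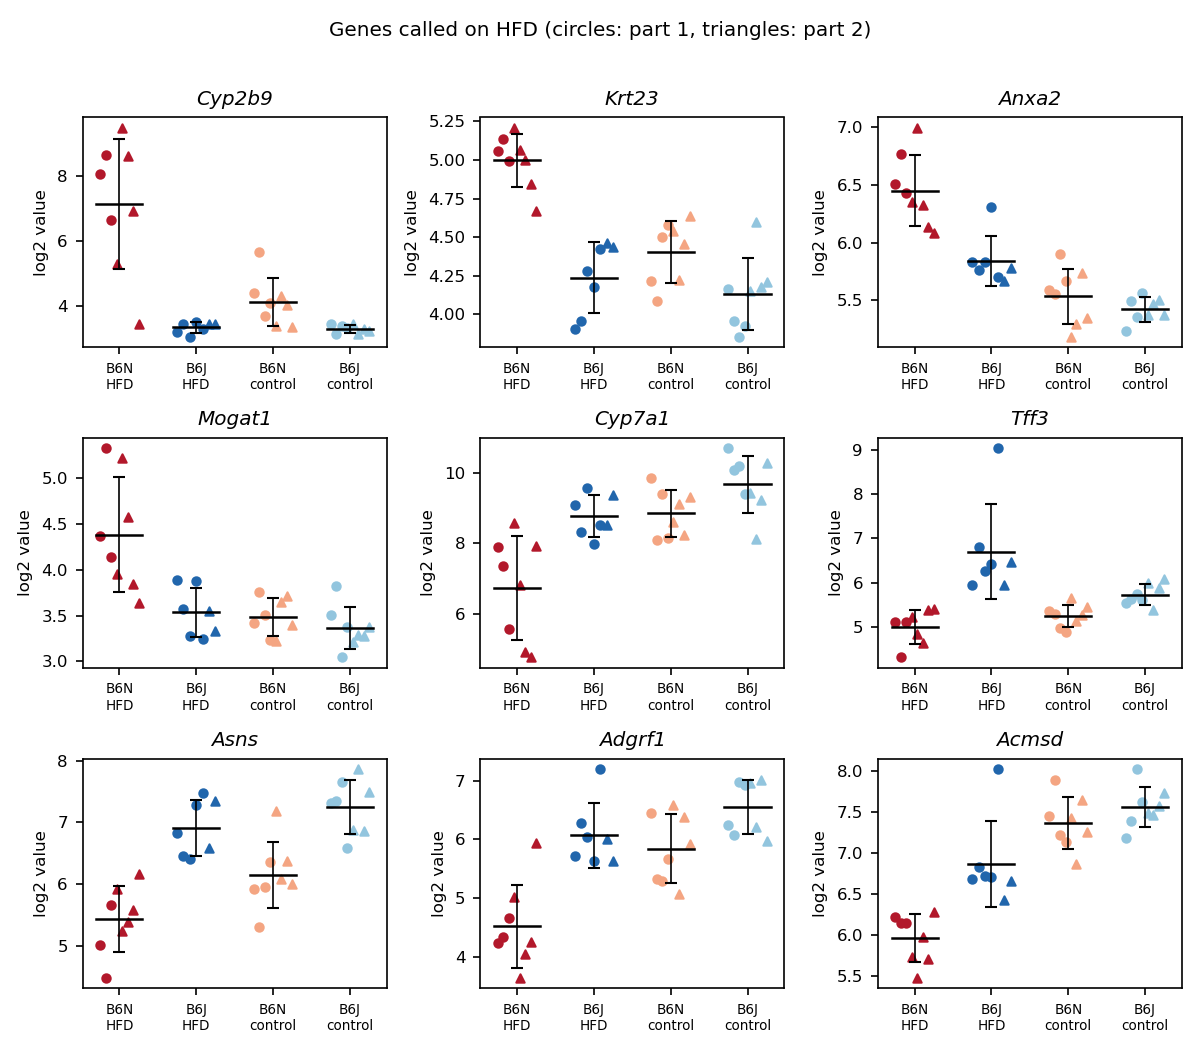
Log2 values of 9 genes called on HFD, per array, in B6N HFD, B6J HFD, B6N control and B6J control livers, with means and SD. Circles and triangles mark the 2 parts of the arrays. Cyp2b9 reaches 9.48 in B6N HFD livers and no more than 3.52 in B6J HFD livers, and 1 B6J HFD array stands high in Tff3, Adgrf1 and Acmsd.

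Fatty acid oxidation genes mostly had small positive differences, and none was called. Of 31 measured genes, 29 had differences above 0, against 51.9% of all genes, and the median was 0.25 on HFD and -0.02 in controls. The mean log2 value of the list was 9.80, 9.83 and 10.1 in B6N HFD livers and 9.46, 9.58 and 9.82 in B6J HFD livers. The ranges met at their edges. Control livers had list means of 9.31, 9.43 and 9.67 in B6N and 9.35, 9.44 and 9.61 in B6J. The largest differences were those of Acot3 (0.80 ± 0.19, adjusted p = 0.0825) and Acot4 (0.62 ± 0.16, adjusted p = 0.131), which split acyl-CoA in peroxisomes.

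PPARα target genes had a like pattern, with 28 of 29 differences above 0, a median of 0.36 on HFD and 0.02 in controls, and none called. Cyp4a14, a fatty acid hydroxylase, had a difference of 1.12 ± 0.50 (adjusted p = 0.644), and Vnn1, a pantetheinase, one of 1.04 ± 0.26 (adjusted p = 0.0873). Cyp4a14 ranged from 9.94 to 11.76 in B6N HFD livers and from 8.91 to 11.04 in B6J HFD livers, with the lowest B6N value in replicate 8. The PPARα list and that of fatty acid oxidation share Acot1, Acaa1b and Ehhadh. For 19 lipid droplet genes the median was 0.19 and 16 were above 0, led by Cidec (0.68 ± 0.20, adjusted p = 0.229) and G0s2 (0.56 ± 0.22, adjusted p = 0.571).

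With the 2 parts of the arrays as a block, 84 genes were called on HFD (0.421%), 58 higher (0.291%) and 26 lower (0.13%) in B6N. The 37 were among them, and 40 of the 47 others were higher in B6N. The parts were drawn from these same values, although they also follow the replicate numbers, so this count is given as a description beside the 37. In that fit 7 genes of fatty acid oxidation were called, all higher: Acot3, Acot4, Acadm (medium-chain dehydrogenase), Ech1 and Decr1 (auxiliary enzymes for unsaturated fatty acids), Bdh1 (ketone body dehydrogenase) and Slc25a20 (acylcarnitine carrier). Ech1 differed by 0.39 with the block (adjusted p = 0.00108) and by 0.26 without it (adjusted p = 0.633). All 31 differences of the list were above 0 within part 2, and 30 within part 1. The share of all genes above 0 within each part is not given here, and the members share the same arrays. These counts are likewise a description.

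PPARα targets called with the block were Vnn1 (1.17, adjusted p = 0.0136), Cd36 (1.16, adjusted p = 0.00648), a fatty acid transporter, Apoa4 (0.64, adjusted p = 0.0172), a lipoprotein component, and Pex11a (0.55, adjusted p = 0.00948), which divides peroxisomes. Other lipid genes called with the block were the triglyceride lipase inhibitor G0s2 (0.78), the monoglyceride lipase Mgll (0.47), the lipoprotein receptor Vldlr (0.49) and the carnitine acetyltransferase Crat (0.70), all higher. Lgals1 (0.84) and S100a10 (0.51), a galectin and the partner of Anxa2, joined the called genes of the list with annexins and steatosis markers. The 7 genes lower in B6N and called with the block alone included Selenbp2 (-1.22), Selenbp1 (-0.76), Cyp2c70 (-0.69), which makes the muricholic acids of mice, and Igfbp2 (-0.71), an IGF-binding protein. These genes, Acot3, Acot4, Vnn1, Cd36, G0s2 and Igfbp2 apart, were chosen for naming after their values were seen.

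Cholesterol synthesis showed the opposite sign. All 20 measured genes had differences below 0 on HFD, with a median of -0.29, and none was called. The median was -0.42 in controls, in which none was called either. The list's mean log2 value was 8.83, 9.10 and 9.41 in B6N HFD livers, against 8.97, 9.56 and 9.76 in B6J HFD livers. Sqle, squalene epoxidase, had the largest difference (-0.94 ± 0.25, adjusted p = 0.131), followed by Dhcr7, which catalyses the last step of the pathway (-0.52 ± 0.24, adjusted p = 0.659). In the list of fatty acid and triglyceride synthesis 1 of 31 genes was called, Mogat1, and the median was -0.15.

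Acsl4, an acyl-CoA synthetase with a preference for arachidonic acid, had 7.71, 7.90 and 8.17 in B6N HFD livers and 8.16, 8.47 and 8.72 in B6J HFD livers. The groups touched at 1 array of each. B6N was lower by a difference of -0.55 ± 0.11 (adjusted p = 0.0119), and the control difference was -0.45 ± 0.10 (adjusted p = 0.155). Without the arrays of high acinar level the call was lost (-0.53, adjusted p = 0.0857). Among 27 genes that take up fatty acids or handle lipoproteins none was called, and Fabp5, a fatty acid binding protein, had -1.06 ± 0.29 (adjusted p = 0.162), opposite in sign to Cd36 (0.98 ± 0.25, adjusted p = 0.121).

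**Figure D4:**
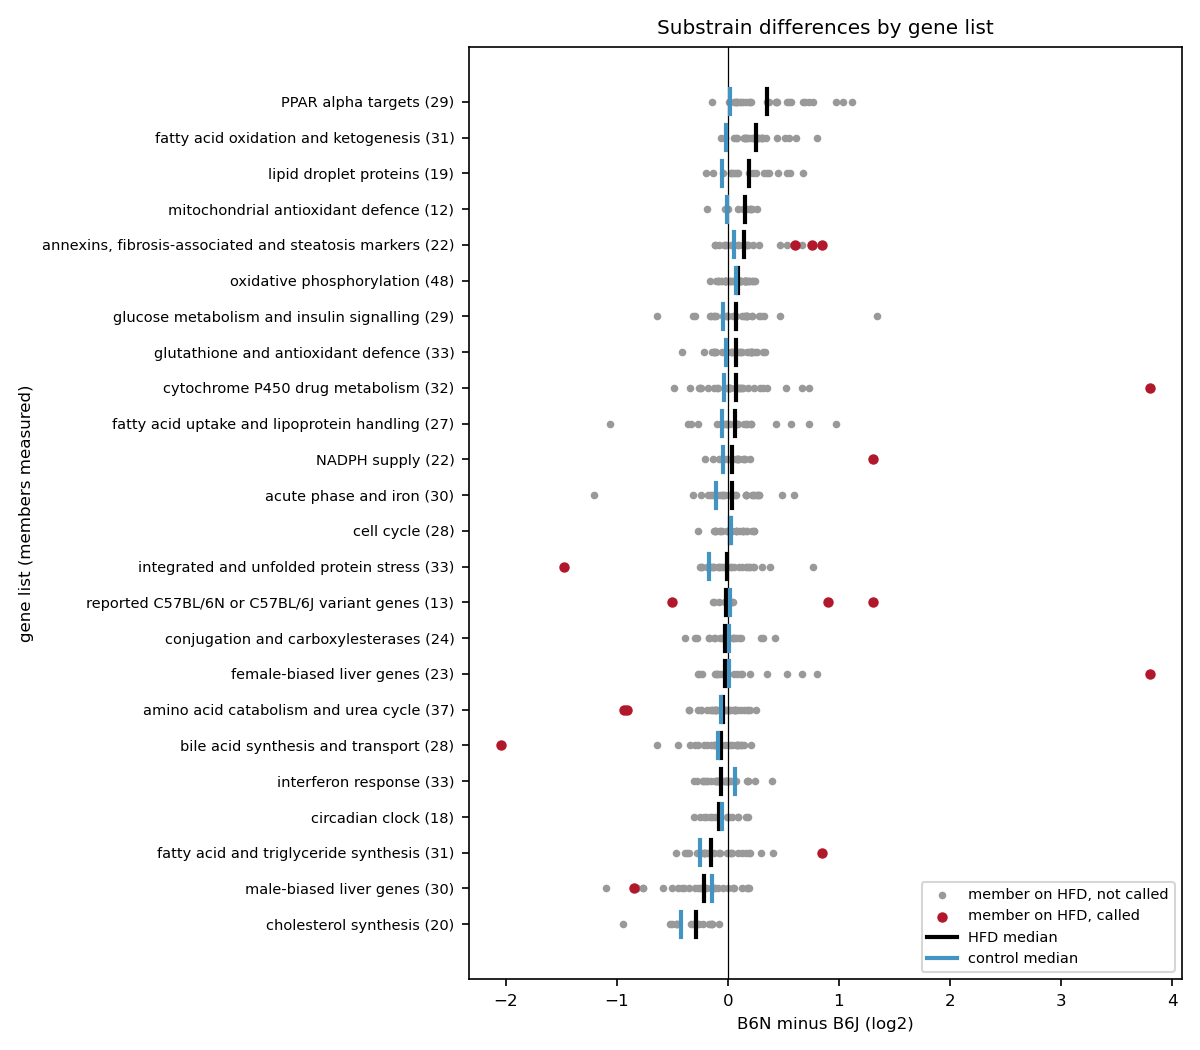
Differences (B6N minus B6J, log2) of the members of 24 pathway lists on HFD, 1 point per gene, with the number measured in brackets. Red points are called genes, and black and blue bars are the list medians on HFD and in controls. The HFD medians run from -0.29 for cholesterol synthesis to 0.36 for PPARα targets.

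Cyp7a1, which hydroxylates cholesterol in the first step of bile acid synthesis, was lower in B6N. Its values were 4.77, 7.09 and 8.59 in B6N HFD livers and 7.98, 8.52 and 9.57 in B6J HFD livers. The B6N livers were widely spread, with 3 below 6, and 1 of them lay within the B6J range. The difference was -2.04 ± 0.45, a 4.11-fold lower level in B6N (2.18 to 7.73, adjusted p = 0.0434). It was -1.76 within part 1 and -2.35 within part 2, and -0.83 ± 0.43 in controls (adjusted p = 0.551). The call was kept in 5 of the 15 fits that left out an array (highest adjusted p = 0.11) and lost without the arrays of high acinar level (-2.06, adjusted p = 0.128). Cyp7a1 was the 1 called gene of 28 for bile acid synthesis and transport (median -0.06) and of 15 pericentral hepatocyte markers (median -0.12).

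Enzymes of amino acid and urate metabolism were also among the lower genes. Csad, which makes the taurine precursor hypotaurine, had 7.22, 7.52 and 8.22 in B6N HFD livers and 7.68, 8.76 and 9.08 in B6J HFD livers. Most B6J arrays lay above the B6N range. The difference was -0.93 ± 0.20 (adjusted p = 0.0251), and -0.70 ± 0.19 in controls. Csad was called in 6 of the 15 fits that left out an array (highest adjusted p = 0.0769).

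Acmsd, which diverts an intermediate of tryptophan breakdown away from NAD synthesis, had 5.48, 6.07 and 6.28 in B6N HFD livers, against 6.43, 6.71 and 8.03 in B6J HFD livers. The groups did not overlap, and B6J replicate 5 was far above its group. B6N was lower by a difference of -0.91 ± 0.17 (adjusted p = 0.0108), or -0.71 without that array (adjusted p = 0.0146). In controls the difference was -0.20 ± 0.16. The call of Acmsd was lost with only the HFD arrays in the fit (adjusted p = 0.0767). Csad and Acmsd were the 2 called of 37 genes of amino acid breakdown and the urea cycle, whose median was -0.04.

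Asns makes asparagine from aspartate and glutamine and is a target of the transcription factor ATF4 when amino acids run short. It had 4.49, 5.49 and 6.17 in B6N HFD livers, against 6.40, 6.83 and 7.48 in B6J HFD livers. Every B6N liver was below every B6J liver. B6N was 2.78-fold lower (2.0 to 3.85, adjusted p = 0.000963), and in controls the difference was -1.10 ± 0.22 (adjusted p = 0.0672). On HFD it was -1.83 within part 1 and -1.30 within part 2. Asns was the 1 called gene of 33 in the list of integrated and unfolded protein stress, whose median was -0.01, and Atf4 had -0.25.

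The bases before the start of Asns are shown because they hold the element through which ATF4 acts on the human gene. They are the 250 bases before the start in RefSeq (GRCm38.p6, chr6:7693210-7693459, minus strand), read in the direction of transcription. Capitals mark TGATGAAAC, which begins 23 bases before the start. Read on both strands, this element was found in 1 of the 26 called genes with a promoter and in 0.189% of all 27025.
Asns: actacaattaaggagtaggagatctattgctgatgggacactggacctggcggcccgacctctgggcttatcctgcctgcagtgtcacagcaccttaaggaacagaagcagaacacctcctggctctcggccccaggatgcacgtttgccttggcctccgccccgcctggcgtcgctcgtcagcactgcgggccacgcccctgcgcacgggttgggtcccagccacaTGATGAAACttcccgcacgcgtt

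Urad, a decarboxylase of uric acid breakdown, had 7.33, 7.92 and 8.76 in B6N HFD livers and 8.40, 8.71 and 9.27 in B6J HFD livers. The highest B6N array, replicate 8, was inside the B6J range. The difference was -0.87 ± 0.16 (adjusted p = 0.00694) and -0.26 ± 0.15 in controls. The call was lost with only the HFD arrays in the fit (adjusted p = 0.0703).

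Tff3, a secreted peptide that protects epithelia, had 4.31, 5.10 and 5.40 in B6N HFD livers, against 5.94, 6.42 and 9.03 in B6J HFD livers. The groups did not overlap, although B6J replicate 5 stood far above the other 6. B6N was 3.24-fold lower (2.22 to 4.72, adjusted p = 0.000963). Without that array the difference was -1.31 in place of -1.70, and the adjusted p was 5.51e-06. In controls the difference was -0.48 ± 0.26. The call was lost with only the HFD arrays in the fit (adjusted p = 0.0702).

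Adgrf1, an adhesion G protein-coupled receptor also called Gpr110, had 3.64, 4.29 and 5.93 in B6N HFD livers and 5.63, 6.01 and 7.199 in B6J HFD livers. B6N replicate 8 alone reached the B6J range. B6N was 2.94-fold lower (2.0 to 4.33, adjusted p = 0.00546), and in controls the difference was -0.71 ± 0.27 (adjusted p = 0.413). The B6N median on HFD lay below the array median, so the size of the fold is uncertain.

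C8b, the beta chain of complement component C8, had 9.38, 10.29 and 11.19 in B6N HFD livers, against 10.94, 10.99 and 11.39 in B6J HFD livers. B6N replicate 8 was again the highest of its group. The difference was -0.84 ± 0.16 (adjusted p = 0.0113) and -0.33 ± 0.15 in controls. Without the arrays of high acinar level it was -0.83 (adjusted p = 0.0692).

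Enho, which encodes the secreted peptide adropin, had 5.76, 5.85 and 6.26 in B6N HFD livers and 6.36, 6.56 and 6.78 in B6J HFD livers, with no overlap. B6N was 1.52-fold lower (1.30 to 1.77, adjusted p = 0.00683). Sort1, the sorting receptor sortilin, had 5.61, 5.87 and 6.26 in B6N HFD livers and 6.19, 6.45 and 7.12 in B6J HFD livers. The groups met at their edges, and the difference was -0.63 ± 0.13 (adjusted p = 0.0224), lost without B6N replicate 4 or 5 or B6J replicate 2 (highest adjusted p = 0.0676).

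The remaining genes higher in B6N were mixed in role. AI506816 had 5.25, 6.12 and 6.33 in B6N HFD livers and 3.65, 4.83 and 5.46 in B6J HFD livers, a 2.59-fold difference (adjusted p = 0.0145), with a control difference of 1.003 ± 0.26. Its 2 lowest B6N arrays met the B6J range, and the call was lost without B6J replicate 3 or 7 (highest adjusted p = 0.060). Slc17a8, a vesicular glutamate transporter, had 7.92, 8.31 and 8.44 in B6N HFD livers and 6.56, 7.71 and 8.13 in B6J HFD livers (0.87 ± 0.19, adjusted p = 0.0461). It was one of the less stable calls, kept in 4 of the 15 fits that left out an array. Rab30, a GTPase of the Golgi, had 5.49, 6.00 and 6.27 in B6N HFD livers and 4.45, 5.04 and 5.84 in B6J HFD livers (0.79 ± 0.16, adjusted p = 0.0224). Its call was kept in 8 of the 15 fits that left out an array (highest adjusted p = 0.0812). With only the HFD arrays in the fit it was lost (adjusted p = 0.091).

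Rab4a, a GTPase of recycling endosomes, had 6.99, 7.06 and 7.37 in B6N HFD livers and 6.39, 6.64 and 6.84 in B6J HFD livers, without overlap (0.46 ± 0.07, adjusted p = 0.00118). Pebp1 was the 1 called gene with more than 1 probe set. Its 3 sets had differences of 0.35, 0.39 and 0.39, and the dimmest of them missed the threshold (adjusted p = 0.126). The call was lost without the arrays of high acinar level (adjusted p = 0.136). The last 6 genes higher in B6N were Unc119, Cryzl2, Sema5b, Camk2b, Abhd17a and Khdrbs3. Their differences were small, between 0.34 (Khdrbs3, an RNA-binding splicing regulator) and 0.47 (Unc119, a carrier of lipid-modified proteins). Khdrbs3 kept the call in all 15 fits that left out an array. Cryzl2 and Camk2b kept it in 8, Sema5b and Abhd17a in 6 and Unc119 in 5. All 6 genes lost the call with only the HFD arrays in the fit and without the arrays of high acinar level.

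The remaining genes lower in B6N were Cib3, Dhrs9, Mapre2, Tbc1d2b, Spic and Rnf145. Cib3, of a calcium-binding protein family, had 4.25, 4.50 and 4.83 in B6N HFD livers and 4.83, 5.52 and 6.20 in B6J HFD livers (-0.92 ± 0.19, adjusted p = 0.0251). B6N replicate 8 and B6J replicate 4 met at 4.83. Dhrs9, a retinol dehydrogenase, had 3.65, 4.20 and 4.57 in B6N HFD livers and 4.59, 4.72 and 5.11 in B6J HFD livers (-0.61 ± 0.14, adjusted p = 0.0438). The B6N medians of Cib3 and Dhrs9 lay below the array median, so the sizes of these differences are uncertain. Mapre2, which binds growing microtubule ends, Tbc1d2b, Spic and Rnf145 had differences of -0.60, -0.45, -0.39 and -0.38. Spic, a transcription factor of red pulp macrophages, was below the array median in both groups and is named here after its values were seen. All of these except Dhrs9 overlapped between the groups. Of the 15 fits that left out an array, Cib3 and Mapre2 kept the call in 7 and Tbc1d2b in 4. Dhrs9, Spic and Rnf145 kept it in 3.

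Nnt was the 1 called gene of 22 for NADPH supply, a list whose median was 0.04. The 12 mitochondrial antioxidant genes had none called and a median of 0.16, with Glrx5 at 0.27 ± 0.08 (adjusted p = 0.342) and Gpx4 at 0.22 ± 0.12. None of 33 genes of glutathione and antioxidant defence was called (median 0.08), with Gstp1 at -0.41 ± 0.12 (adjusted p = 0.238) and Gstk1 at 0.34 ± 0.08 (adjusted p = 0.0757). Of 48 oxidative phosphorylation genes 35 were above 0, with a median of 0.10 on HFD, 0.07 in controls and none called. On HFD 2 of the 48 had an unadjusted p under 0.05 (limma). Within the parts of the arrays 46 and 47 of the 48 were above 0. The parts were drawn from these same values and the share of all genes within each is not given here, so these counts are a description.

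No gene was called in the lists of conjugation and carboxylesterases (24 measured, median -0.02), glucose metabolism (29, 0.08), circadian clock (18, -0.08), acute phase and iron (30, 0.04), interferon response (33, -0.07) and cell cycle (28, 0.02). Rgs16, a regulator of G protein signalling, had the largest difference of these, 1.35 ± 0.40 (adjusted p = 0.239). Hamp, the iron hormone hepcidin, had -1.21 ± 0.29 (adjusted p = 0.0825). Among clock output genes Dbp had -0.31 ± 0.33 and Tef -0.25 ± 0.17, and no clock gene had an unadjusted p under 0.05.

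Markers of other cell types had no called gene. Of 25 macrophage and Kupffer cell markers 21 had differences below 0, with a median of -0.18 on HFD and 0.04 in controls, and none was called. Their mean log2 value was 6.29, 6.49 and 6.77 in B6N HFD livers and 6.36, 6.71 and 6.94 in B6J HFD livers. Within part 2 of the arrays 2 of the 25 were above 0, with a median of -0.26, while within part 1 there were 11 above 0, with a median of -0.002. Part 2 held only 2 B6J HFD arrays, and the share of all genes above 0 within each part is not given here. The parts were drawn from these same values, so these counts are a description. Cd74, an MHC class II chaperone, had -0.65 ± 0.22 (adjusted p = 0.425). In bulk liver fewer cells of a type and less RNA per cell cannot be told apart.

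All 22 pancreatic acinar genes had differences below 0, with a median of -1.03, and none was called. Reg1 had -1.68 ± 0.75 (adjusted p = 0.649). Without the arrays above 9 the median was 0.06 and 15 of the 22 were above 0. That limit was set on the mean of these same 22 genes after the data were seen. The HFD arrays it removed, replicates 1 and 2, were B6J, so a rise of the median was favoured in advance. With the acinar level as a covariate 43 genes were called, 34 of them among the 37. The medians of the other marker lists, of lymphocytes, stellate cells, endothelium, bile duct, adipocytes, red blood cells, muscle, kidney and adrenal, and of mature and periportal hepatocytes, lay between -0.10 and 0.10, with no called gene.

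Most of the 37 differences were larger on HFD than in controls, and the test of that change passed for no gene. Of the 37 genes 36 had the same sign in controls, against 59.1% of all genes, and 35 were larger on HFD. The genes were chosen for a large difference on HFD, which favours that order. In controls 23 of the 37 had an unadjusted p under 0.05, against 9.39% of all genes, in a test that shares each gene's estimate of the spread. For the difference between diets no gene had an adjusted p under 0.05 (limma), 829 (4.16%) had an unadjusted p under 0.05, and 17 of the 37 were among these.

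The lowest of these p-values among the 37 after Cyp2b9 were those of Tff3 (-1.22 ± 0.37, unadjusted p = 0.0025), Krt23 (0.49 ± 0.15, 0.0025) and Spic (-0.39 ± 0.12, 0.0028). Sema5b (0.40 ± 0.13, 0.0033), Anxa2 (0.50 ± 0.16, 0.0038), Acmsd (-0.71 ± 0.24, 0.0051), Mogat1 (0.72 ± 0.25, 0.0067) and Urad (-0.61 ± 0.22, 0.0088) followed. Their adjusted p-values were higher than that of Cyp2b9. For the genes called in both diets the difference between diets was small, at 0.17 ± 0.17 for Nnt, 0.06 ± 0.14 for Wdfy1 and -0.01 ± 0.29 for G530011O06Rik. Entpd4 was less separate on HFD than in controls, by 0.20 ± 0.08 (unadjusted p = 0.027).

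**Figure D5:**
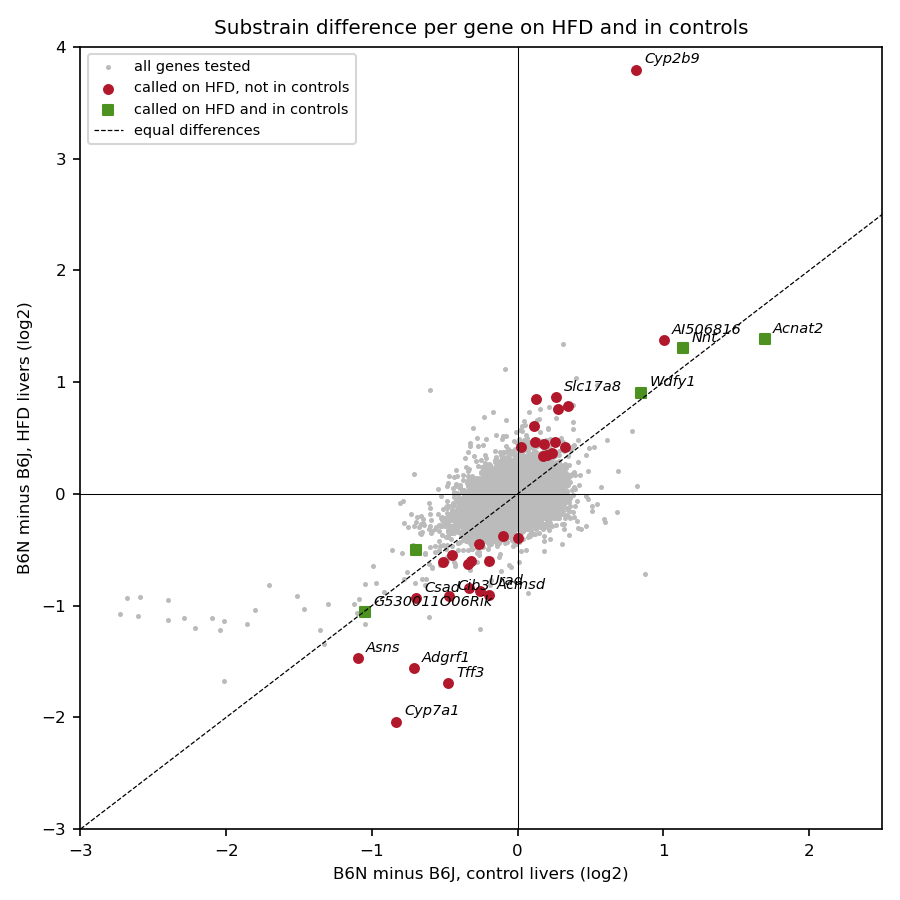
Each point is a gene, with its difference (B6N minus B6J, log2) in control livers on the x axis and in HFD livers on the y axis. Red circles are genes called on HFD and not in controls, green squares genes called in both, and the dashed line marks equal differences. Cyp2b9 (3.80 against 0.81), Cyp7a1, Tff3 and Adgrf1 lie far from the line, and Nnt, Wdfy1 and G530011O06Rik near it.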

How the data were processed

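Total RNA from liver was hybridised to Affymetrix whole-transcript arrays. The submitters' processing notes name RMA and Affymetrix Expression Console 1.1, and the authors' deposited values are on the log2 scale, 1 per probe set. It is not known here whether 1 run covered all arrays. Arrays of the other strains had medians of 3.10 to 6.65 and were used in 1 alternative only.

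Of 35556 probe sets, 21789 carried 1 symbol, 1621 several and 12146 were not listed in the platform annotation. Symbols were updated through Entrez identifiers (21698 matched). For the 999 genes with more than 1 probe set, the set with the highest mean over the 31 B6N and B6J arrays was used. Limma 3.58.1 (R 4.3.3) fitted 1 mean for each of 4 groups (27 residual degrees of freedom) with lmFit and eBayes. Tests were two-sided, with Benjamini-Hochberg adjustment over 19938 genes and a threshold of 0.05. The fit was tested on simulated data. Arrays carry no read depth, and their number limits the precision. There are no detection calls, so a level under the array median may be background. The labels do not say which mice share a litter or day, so the p-values reflect only how these samples vary. No 2 arrays of a group correlated above 0.991.

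The groups share replicate numbers. Deviations from the group means of same-numbered HFD arrays correlated at -0.38 to 0.41, with negative values for numbers 4 and 5, whose 2 arrays lie in different parts, and those of control arrays at 0.05 to 0.38. Not every pair exceeded 0.1 and no label names a shared litter or batch, so the numbers were not taken to pair the mice.

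Alternatives changed the arrays in the fit, the scaling, the filter, the probe sets, the prior, the parts of the arrays as a block and the acinar level. The gene lists (24 of pathways, 13 of markers), the genes compared and the rule for named genes were chosen with earlier results of these data known. Named were called genes above the array median (the 20 largest in each direction), up to 5 called genes of each list, or else its 2 largest, and the variant genes.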

Additional observations from a re-analysis of the deposited data

Results flagged for a closer look

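In 194 groups of HFD values (97 named genes in 2 groups), 18 held 1 array far from the others of its group (9.28%). For independent groups chance would give about 1 in 20. The named genes share the same 15 arrays and were partly chosen for differences in them, so the 2 shares are not a test. Values are log2, with the nearest array of the group after each.

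Among called genes, B6J replicate 5 was highest for Tff3 (9.03, nearest 6.80), Acmsd (8.03, nearest 6.83) and Adgrf1 (7.199, nearest 6.28). B6J replicate 4 was highest for Anxa2 (6.31, nearest 5.83), and B6J replicate 2 for Sort1 (7.12, nearest 6.54). B6J replicate 3 was lowest for Sema5b (4.59, nearest 4.91), and B6N replicate 4 for G530011O06Rik (3.70, nearest 4.14).

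Among genes that were not called, B6N replicate 8 was lowest for Cyp4a14 (9.94, nearest 11.1) and highest for Ces3b (11.8, nearest 11.3). B6N replicate 3 was lowest for Sctr (3.82, nearest 4.04) and Adcy5 (3.885, nearest 4.203) and highest for Ctsc (9.39, nearest 9.11), and B6N replicate 6 was highest for Gp2 (5.41, nearest 4.28). B6J replicate 3 was lowest for Lcn2 (5.004, nearest 5.87) and Cps1 (12.2, nearest 12.6). B6J replicate 6 was highest for Gstp1 (12.9, nearest 12.4) and lowest for Ifit3 (4.38, nearest 5.002), and B6J replicate 1 was highest for Adipoq (4.86, nearest 3.56).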

How the results depend on the processing

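On HFD, 37 genes were called. The count was 15 with only the HFD arrays in the fit (13 of the 37 among them), 74 with array weights (33), 84 with the 2 parts of the arrays as a block (37), 18 within part 1 (11), 3 within part 2 (3), 18 without the arrays of acinar level above 9 (16) and 98 with the parts as a block and the acinar level as a covariate (34). The fits by acinar level above 9 and by parts with acinar level were chosen after seeing the data. Fits of the HFD arrays alone, of 1 part or without arrays hold fewer samples, and for the other counts the cause was not tested. With the replicate block the count was 77 on HFD (36 of the 37) and 14 in controls, against 6. The replicate numbers were not taken to pair mice, so a call gained or lost there is not read as a different effect. In controls the count was 12 with the parts as a block and 13 with parts and acinar level. On HFD the count stayed between 29 and 45 in the other 7 settings. With all 72 arrays in 8 groups 38 genes were called, 23 of them among the 37. In the rest of these settings 29 to 36 of the 37 were called.

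Leaving out 1 array gave 21 to 56 genes on HFD and 5 to 8 in controls. For the difference between diets the count was 0 to 1 in these fits and 1 within part 1, Cyp2b9 in both cases, and 0 in the other settings. None of the 37 genes changed sign in any alternative. Over the 15 settings that did not leave out single arrays, list medians on HFD ran from 0.199 to 0.274 for fatty acid oxidation, 0.201 to 0.492 for PPARα targets, 0.140 to 0.219 for lipid droplet genes and -0.399 to -0.179 for cholesterol synthesis.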
